A study of Drosophila melanogaster with 4 samples.

Results

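The digestive proteases and carbohydrases of Drosophila melanogaster were represented by 46 probes, 1 for each of 46 genes, out of 15744 probes on the array. They were chosen by gene name alone: from the probes with a single gene symbol, 13147 in all, those whose symbol starts with Jon, Mal-A, Amy or Lys before a capital letter, or ends in Try. The rule found 16 Jonah proteases, 11 trypsins, 8 maltases, 3 amylases and 7 lysozymes. It also took in LysRS, a lysyl-tRNA synthetase gene that shares only the letters of the name, so 45 genes belong to the families named, and 1 of these, LysC, is listed as a pseudogene in the gene table. All 46 genes of the gene table whose symbols meet the rule had a probe.

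The series compared messenger RNA that an anti-GFP antibody brought down from larvae of 2 genotypes, in order to find RNAs bound by B52 in the developing eye. B52 is an SR protein, a type of RNA-binding protein that takes part in splicing. GMR X GFP-B52 larvae were set against GMR X GFP-NLS larvae, the control, in which GFP is carried into the nucleus by a localisation signal. In both genotypes the GMR driver, whose activity lies mainly in the differentiating part of the eye disc, controlled the GFP protein, and the anterior ends of 600 larvae of the 3rd instar were pooled. Each two-colour array took the RNA of 1 precipitate in Cy3 and of the other in Cy5. A replicate was run with the dyes both ways, and 2 replicates gave 4 arrays. They are called B52-Cy5 1 and 2, with the GFP-B52 precipitate in Cy5 for replicates 1 and 2, and B52-Cy3 1 and 2, with that precipitate in Cy3. Where values are listed for a pair of arrays, replicate 1 comes first. Nothing in the labels says that the replicates came from separate larvae. The p-values thus cover at most the spread between these samples, and that spread may be technical.

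These enzymes act in the lumen of the gut. Jonah proteases and trypsins are secreted serine proteases that cut dietary protein. Amylases cut starch, and maltases free glucose from the short sugars that remain. Lysozymes cut the wall of bacteria, which fruit fly larvae take in with their food. The genes are known from the midgut rather than from the eye disc, and many lie side by side as tandem copies. Whether the dissected ends held midgut is not stated in the labels, and a ratio between 2 precipitates does not show how much RNA was there.

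The deposited values are log ratios of the 2 channels, centred near 0, with neither the log base nor the direction of the ratio given. They can be read in 2 ways, and both are given throughout. If each column holds a fixed dye ratio, the B52-Cy5 arrays must be multiplied by -1 before averaging; these are called the turned values. If the authors had already turned them, the columns can be averaged as deposited; under the first reading the same average holds the bias between dyes. After turning, a positive value lies on the side of B52 probe 13309, which stood at -0.45 and -0.51 on the B52-Cy5 arrays and at 0.41 and 0.50 on the B52-Cy3 arrays. Of the 5 B52 probes it had the largest turned mean, 0.47, and was picked for that; the others had turned means from -0.33 to 0.13, with 1 below 0, so it serves only to name a side. Which precipitate is higher on that side is unknown. With 4 arrays the precision of each value is limited, and how far a probe stood above background is unknown.

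Of the 46 probes, 42 had a value on all 4 arrays, 40 of them for genes of the families that are not listed as pseudogenes. Amyrel, an amylase relative, had a value of 0.39 on 1 array only, array B52-Cy3 1. Jon65Ai had values of -0.12 and -0.13 on the arrays of replicate 2. Jon99Ciii had 3 values between -0.002 and 0.072, and iotaTry had -0.24, 0.05 and 0.24. These 4 probes were left out of the tests below. Jon99Ciii and iotaTry, with values in both replicates, entered 1 alternative, which asked for 1 array or more in each replicate and called neither.

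As deposited, the 42 probes lay toward negative values on the arrays of replicate 1. Their median was -0.17 on array B52-Cy5 1, where 30 of 42 were below 0, and -0.07 on array B52-Cy3 1, where 23 were. On replicate 2 the medians were -0.01 and 0.03, with 23 and 16 of 42 below 0. The medians over all 13963 probes with 4 values lay between -0.005 and 0.001 on the 4 arrays. The members thus stood below the array median on array B52-Cy5 1 and close to it on both arrays of replicate 2. They also lay farther from 0 on replicate 1, with a median absolute value of 0.25 and 0.21 on its 2 arrays against 0.17 and 0.15 over all probes. On replicate 2 the figures were 0.09 and 0.07 for the members and 0.08 and 0.09 over all probes. The SD over the members was 0.35 and 0.25 on replicate 1, against 0.27 and 0.23 over all probes. On replicate 2 it was 0.15 and 0.20, against 0.22 and 0.19.

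**Figure D1:**
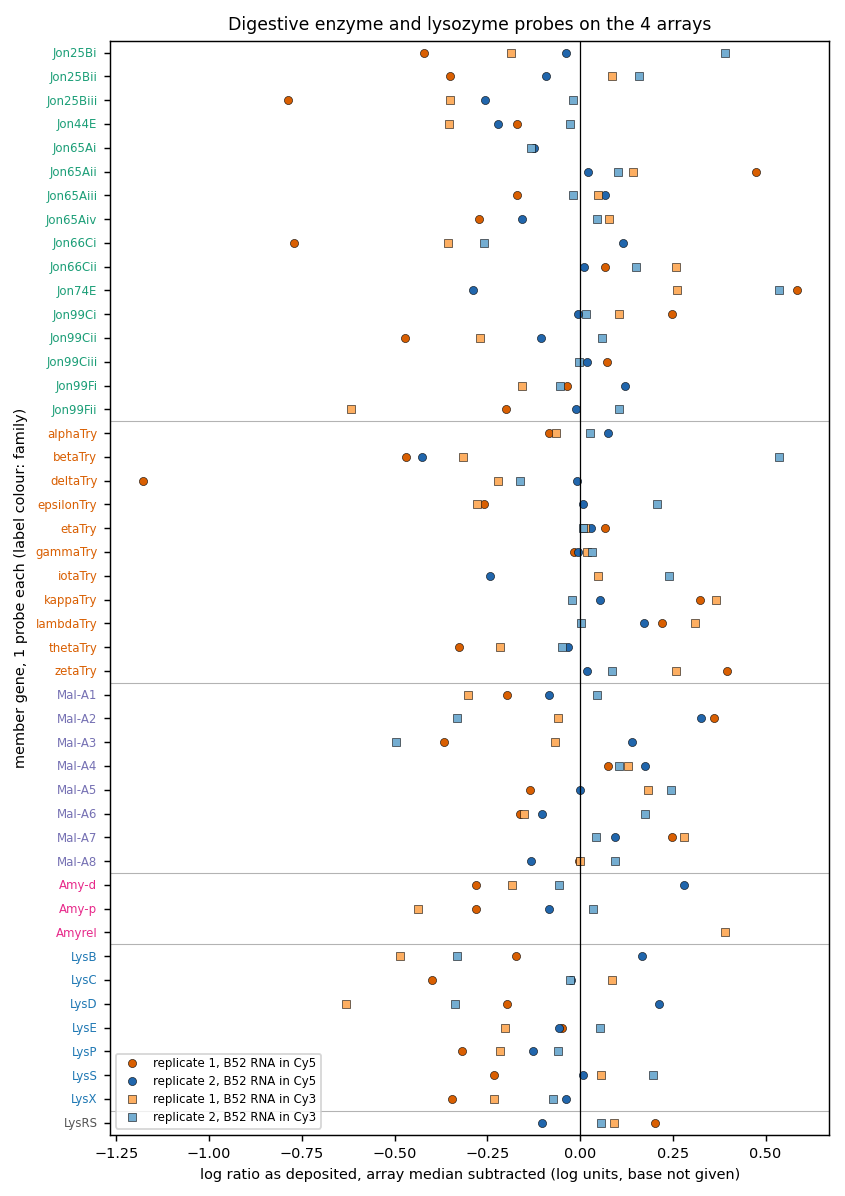
Log ratio of every member probe on each of the 4 arrays as deposited, with the array median subtracted; circles are the B52-Cy5 arrays, squares the B52-Cy3 arrays, orange replicate 1 and blue replicate 2. On array B52-Cy5 1, 30 of the 42 probes with 4 values lie below 0, and deltaTry lies farthest out, at -1.18.

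Few probes stood at the ends of an array. On array B52-Cy5 1, 3 of the 43 members with a value, or 6.98%, were among the lowest 147 of 14788 probes, which are 0.994% of the array. They were deltaTry, the 16th lowest at -1.18, Jon25Biii at -0.79 and Jon66Ci at -0.77. On array B52-Cy3 2, betaTry and Jon74E, at 0.54 each, were 2 of 45 members among the highest 153 of 15307. The other tails of 1% held no member.

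The 2 dye orientations related to each other differently in the 2 replicates, among the members as among all probes. In replicate 1, 33 of 42 members had the same sign on both arrays as deposited, against 72.0% of all probes, and 22 were below 0 on both, against 36.6%. In replicate 2, 25 of 42 had opposite signs on the 2 arrays, against 57.5% of all probes. Opposite signs are what a fixed dye ratio gives in a dye swap. Across the 42 members, the 2 arrays of replicate 1 correlated at a Pearson r of 0.60 (0.61 across all probes), and those of replicate 2 at -0.63 (-0.17 across all probes; Spearman rho -0.43 and -0.27). These are descriptions across probes, which share the array, the labelling and, for close copies, perhaps the RNA they bind.

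**Figure D2:**
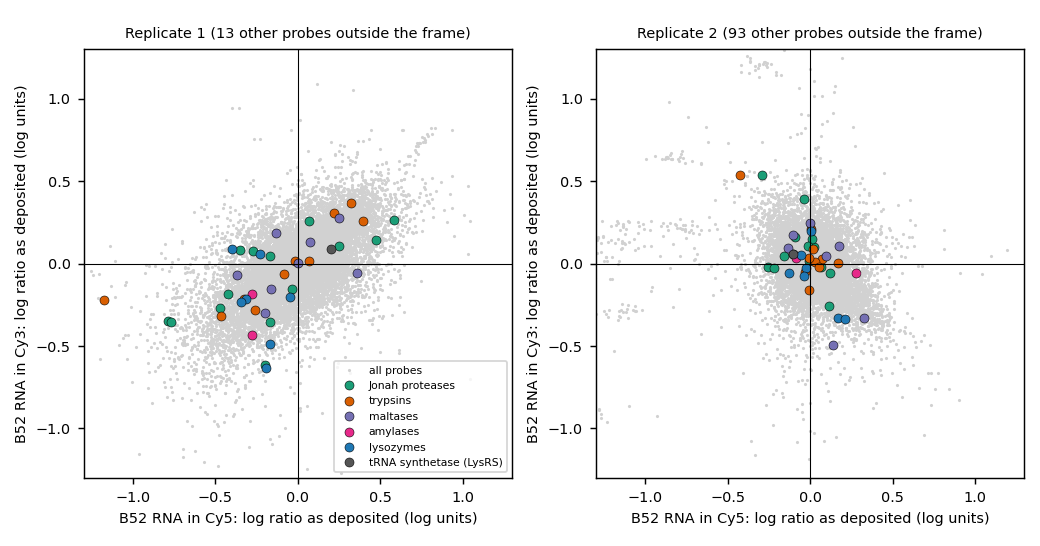
Log ratio on the B52-Cy3 array against that on the B52-Cy5 array, both as deposited, for replicate 1 on the left and replicate 2 on the right; grey points are all probes with 4 values and coloured points the 42 members by family. The members run from lower left to upper right in replicate 1 (r = 0.60) and from upper left to lower right in replicate 2 (r = -0.63).

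After turning, the members as a group lay close to 0. Their median was 0.01 log units, with 0.02 in replicate 1 and 0.03 in replicate 2, and 24 of 42 means were above 0, against 48.8% of all probes. In limma's test of the 2 replicate means over all probes, 0 of 42 members passed an adjusted p of 0.05, as did 0.0% of all probes, and the smallest adjusted p was 0.273. At an unadjusted p under 0.05 there were 8 members, against 12.9% of all probes. They were Jon25Bi, Jon25Bii, Jon25Biii, Jon65Aiv and Mal-A5 on the B52-probe side, where 5.22% of all probes were, and LysB, LysD and Mal-A2 on the opposite side, where 7.73% were. With the replicate as a random block over the 4 arrays, 1 member, Mal-A2, passed in limma (adjusted p = 0.0385), as did 3.2% of all probes. That fit put the correlation between arrays of 1 replicate at -0.66, and a negative value shrinks the standard error. With a fixed replicate block 0.0% of all probes passed. On all 4 turned arrays, 5 members were above 0, against 5.96% of all probes, and 1 below 0, against 8.04%. Without centring the 5 were 3, as Mal-A5 and Mal-A8 each had a value within 0.002 of 0. An exact sign-flip test over 2 replicates cannot give a p below 0.5.

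As deposited, the median was -0.06 log units, made up of -0.13 in replicate 1 and 0.01 in replicate 2. Of 42 means 27 were below 0, against 49.9% of all probes. In limma 0 of 42 members passed the adjusted p of 0.05, against 0.659% of all probes, and their smallest adjusted p was 0.31. The unadjusted p was under 0.05 for 5 members, against 9.94% of all probes: deltaTry, Jon25Biii, Jon66Ci and LysD below 0, where 5.78% of all probes were, and Jon74E above, where 4.16% were. On all 4 arrays 7 members were above 0, against 11.4% of all probes, and 6 below, against 10.6%. With the arrays of replicate 1 alone, 7 members passed in limma (16.7%, against 10.3% of all probes): Jon25Biii, Jon66Ci, Jon74E, Jon99Cii, betaTry, kappaTry and Amy-p. With those of replicate 2 alone, 0 did. Both fits took the 2 dye orientations of 1 replicate as separate samples, so their p-values hold no spread between replicates. Without array B52-Cy5 2, Jon74E passed, as did 1.2% of all probes, and without array B52-Cy3 1, deltaTry, as did 0.895%.

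Each probe's variation over the 4 arrays was also split into 4 patterns. The mean of the arrays as deposited took 39.9% of the mean square of the members, the turned comparison 18.5%, the difference between replicates 26.7% and the interaction 14.9%. Over all probes the shares were 40.2%, 22.6%, 24.9% and 12.3%. Across members the replicate means correlated at a Pearson r of 0.09 after turning (0.31 across all probes) and at 0.48 as deposited (0.27 across all probes).

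**Figure D3:**
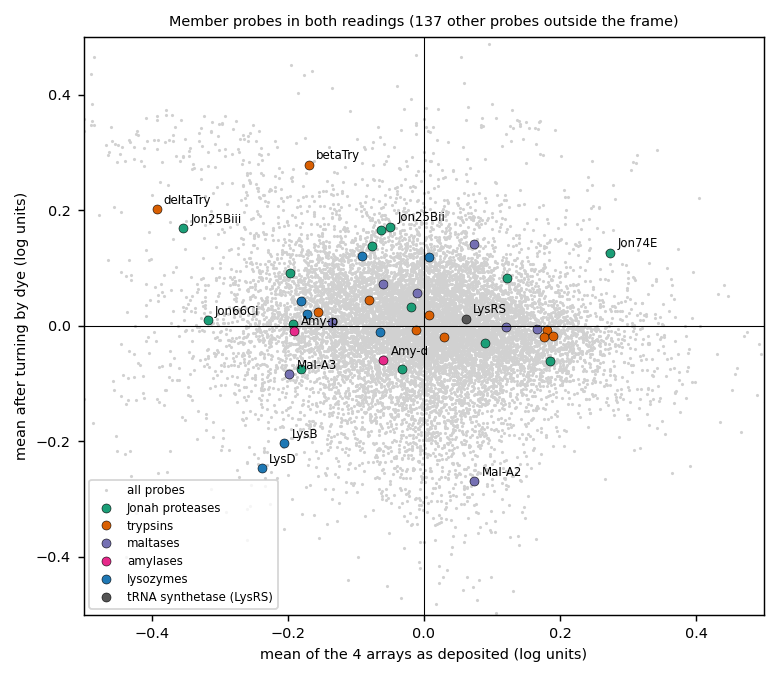
Mean of the 4 arrays after turning by dye (vertical) against their mean as deposited (horizontal), both in log units; grey points are all probes with 4 values, coloured points the 42 members, and names mark the members described with all their array values. The members spread from -0.39 to 0.27 as deposited and from -0.27 to 0.28 after turning.

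Jonah proteases are chymotrypsin-like enzymes of the larval midgut. After turning, 10 of the 14 with 4 values were positive, and their median was 0.06 (0.10 in replicate 1 and 0.08 in replicate 2). As deposited, 10 of 14 lay below 0, with a median of -0.06. The 3 neighbouring genes Jon25Biii, Jon25Bii and Jon25Bi, on arm 2L, had nearly the same turned mean. Jon25Bii, probe 1611, had the largest of the family; it stood at -0.35 and -0.09 on the B52-Cy5 arrays and at 0.09 and 0.16 on the B52-Cy3 arrays as deposited. Its turned mean was 0.17 ± 0.07 log units (SD, n = 2, adjusted p = 0.313 in limma). That is 1.48-fold if the base is 10 and 1.13-fold if it is 2. It was 0.11 without array B52-Cy5 1.

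Jon25Biii, probe 5839, was below 0 on every array as deposited, at -0.79 and -0.26 on the B52-Cy5 arrays and at -0.35 and -0.02 on the B52-Cy3 arrays. Its mean was thus -0.35 ± 0.30 as deposited (SD, n = 2; adjusted p = 0.31 in limma) and 0.17 ± 0.07 after turning (adjusted p = 0.319). Without array B52-Cy5 1, the turned mean was -0.12. Jon25Bi, probe 299 and named after its values were seen, stood at -0.42 and -0.04 on the B52-Cy5 arrays and at -0.19 and 0.39 on the B52-Cy3 arrays, and its turned mean was 0.17 ± 0.07 (SD, n = 2; adjusted p = 0.321 in limma). Only the turned averages of the 3 genes coincided. As deposited their means ran from -0.35 to -0.05, and on a single array Jon25Biii and Jon25Bii differed by up to 0.44 log units, rank 399 of the 861 pairs of members.

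Jon66Ci, probe 1133, stood at -0.77 and 0.12 on the B52-Cy5 arrays and at -0.36 and -0.26 on the B52-Cy3 arrays. It was low on 3 of 4 arrays, with a mean of -0.32 ± 0.35 as deposited (SD, n = 2; adjusted p = 0.403 in limma) and of 0.01 ± 0.28 after turning. Its neighbour Jon66Cii was above 0 on all 4 arrays as deposited, between 0.01 and 0.26. Jon74E, probe 15289, was the highest member as deposited, at 0.58 and -0.29 on the B52-Cy5 arrays and 0.26 and 0.54 on the B52-Cy3 arrays. Its mean was 0.27 ± 0.21 as deposited (SD, n = 2; adjusted p = 0.427 in limma), and after turning 0.13 ± 0.41, with the replicates on opposite sides of 0. As deposited it was 0.067 without array B52-Cy3 2 and 0.48 without array B52-Cy5 2. The other 8 Jonah probes with 4 values had turned means between -0.08 and 0.14.

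Trypsins cut proteins after lysine or arginine, and the 11 genes form 1 tandem cluster on arm 2R. Of the 10 with 4 values, 8 had turned means within 0.05 log units of 0, and the median was 0.01. The exceptions were betaTry and deltaTry. The betaTry probe, 15469, stood at -0.47 and -0.43 on the B52-Cy5 arrays and at -0.32 and 0.54 on the B52-Cy3 arrays. Its turned mean was the largest of all members, 0.28 ± 0.29 log units (SD, n = 2; adjusted p = 0.385 in limma), and came mainly from replicate 2, at 0.48 against 0.08 in replicate 1. It was 0.083 without array B52-Cy5 1.

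The deltaTry probe, 15679, stood at -1.18 and -0.01 on the B52-Cy5 arrays and at -0.22 and -0.16 on the B52-Cy3 arrays. It had the most negative mean of the members as deposited, -0.39 ± 0.44 (SD, n = 2; adjusted p = 0.324 in limma), and without array B52-Cy5 1 that mean was -0.15. After turning it lay at 0.20 ± 0.39, with 0.48 in replicate 1 and -0.08 in replicate 2, and between -0.15 and 0.55 with 1 array left out. The neighbouring gammaTry gene, known as a close copy, lay between -0.02 and 0.03 on all 4 arrays. These 2 probes differed by up to 1.16 log units on 1 array, which ranked the pair 842 of 861 from the closest pair of members to the farthest. Neither the sequence identity of the copies nor the stretch of each gene on a probe was analysed here. Close copies are thus uncertain as separate readings.

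As deposited, the means of the trypsins split along the cluster, mainly through replicate 1. The neighbours lambdaTry, kappaTry, zetaTry and etaTry had means between 0.03 and 0.19, and lambdaTry, zetaTry and etaTry were above 0 on all 4 arrays. Next to them thetaTry was below 0 on all 4 arrays, with a mean of -0.16 ± 0.16 (SD, n = 2), and epsilonTry and betaTry had means of -0.08 and -0.17. The alphaTry and gammaTry means were -0.01 and 0.01. In replicate 2, lambdaTry, kappaTry, zetaTry and etaTry lay at 0.09, 0.02, 0.05 and 0.02, against 0.26, 0.34, 0.33 and 0.04 in replicate 1. Replicate 2 had thetaTry at -0.04, but epsilonTry and betaTry above 0, at 0.11 and 0.05. These genes were named after their values were seen, and none had an adjusted p under 0.574 in limma.

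Maltases, alpha-glucosidases that split maltose, form a tandem cluster of 8 genes on arm 2R, all with 4 values. Their median was 0.002 log units after turning and 0.03 as deposited, with 4 of 8 above 0 in each reading. Mal-A2, probe 15371, was the only member on the opposite side from the B52 probe on all 4 arrays. It stood at 0.36 and 0.33 on the B52-Cy5 arrays and at -0.06 and -0.33 on the B52-Cy3 arrays. Its turned mean was -0.27 ± 0.08 log units (SD, n = 2; adjusted p = 0.274 in limma), 1.86-fold if the base is 10 and 1.21-fold if it is 2. It lay between -0.34 and -0.19 with any 1 array left out.

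The next gene of the cluster, Mal-A3, probe 895, stood at -0.37 and 0.14 on the B52-Cy5 arrays and at -0.07 and -0.50 on the B52-Cy3 arrays. Its replicates were on opposite sides of 0 after turning, at 0.15 and -0.32, and its mean as deposited was -0.20 ± 0.03 (SD, n = 2; adjusted p = 0.531 in limma). That SD understates how far the arrays differed: the mean was -0.04 without array B52-Cy3 2, -0.12 without array B52-Cy5 1, -0.36 without array B52-Cy5 2 and -0.09 with print position removed. Mal-A5 lay on the B52-probe side on all 4 turned arrays, though by 0.001 log units on array B52-Cy5 2, with a mean of 0.14 ± 0.03 (SD, n = 2; adjusted p = 0.342 in limma). Mal-A4 and Mal-A7 were above 0 on all 4 arrays as deposited, with means of 0.12 and 0.17, and lay at -0.003 and -0.005 after turning. Mal-A1, Mal-A6 and Mal-A8 had turned means of 0.01, 0.07 and 0.06.

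Amy-p and Amy-d, neighbouring copies of the amylase gene, were low in replicate 1 as deposited. In replicate 2 their means were -0.02 and 0.11. Amy-p, probe 8413, stood at -0.28 and -0.08 on the B52-Cy5 arrays and at -0.44 and 0.04 on the B52-Cy3 arrays. Amy-d, probe 6413, stood at -0.28 and 0.28 and at -0.18 and -0.06. Their turned means were -0.01 ± 0.10 and -0.06 ± 0.15 and those as deposited -0.19 ± 0.24 and -0.06 ± 0.24 (SD, n = 2). In array B52-Cy5 1 the 2 copies had nearly the same value, whereas in array B52-Cy5 2 they differed by 0.37 log units.

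The 7 lysozyme genes lie together on arm 3L. As deposited, 6 of 7 had a mean below 0, with a median of -0.17, and all 7 were below 0 on array B52-Cy5 1. LysP and LysX were below 0 on all 4 arrays, with means of -0.18 ± 0.12 and -0.17 ± 0.16 (SD, n = 2). After turning, the median was 0.02 and 4 of 7 were above 0. LysD and LysB, known as close copies, lay on the opposite side from the B52 probe.

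LysD, probe 11246, stood at -0.20 and 0.21 on the B52-Cy5 arrays and at -0.63 and -0.34 on the B52-Cy3 arrays. Its turned mean was -0.25 ± 0.04 log units (SD, n = 2; adjusted p = 0.273 in limma) and its mean as deposited -0.24 ± 0.25 (adjusted p = 0.493). LysB, probe 8622, ran alongside it, at -0.17 and 0.17 on the B52-Cy5 arrays and at -0.49 and -0.33 on the B52-Cy3 arrays. Its turned mean was -0.20 ± 0.07 (SD, n = 2; adjusted p = 0.292 in limma). The 2 probes differed by at most 0.15 log units on any array, rank 32 of the 861 pairs of members. Of the 13962 other probes, 17, LysB among them, lay that near to LysD on every array. As many as 74, LysD among them, lay that near to LysB.

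The remaining lysozymes did not share this pattern. LysC, which the gene table lists as a pseudogene and which lies between LysB and LysD, had turned values of 0.24 in replicate 1 and -0.001 in replicate 2. LysE lay at -0.01 ± 0.09 and LysS at 0.12 ± 0.04 (SD, n = 2; adjusted p = 0.391 in limma for LysS). With any 1 array left out, the turned mean of LysD lay between -0.45 and -0.04 and that of LysB between -0.37 and -0.04. For both genes the value nearest 0 came without array B52-Cy3 1.

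LysRS, which is not a digestive gene, stood at 0.20 and -0.10 on the B52-Cy5 arrays and at 0.09 and 0.06 on the B52-Cy3 arrays (probe 12417). Its mean was 0.01 ± 0.10 after turning and 0.06 ± 0.12 as deposited (SD, n = 2). Leaving it out moved the median of the members by less than the SD between replicates in both readings.

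**Figure D4:**
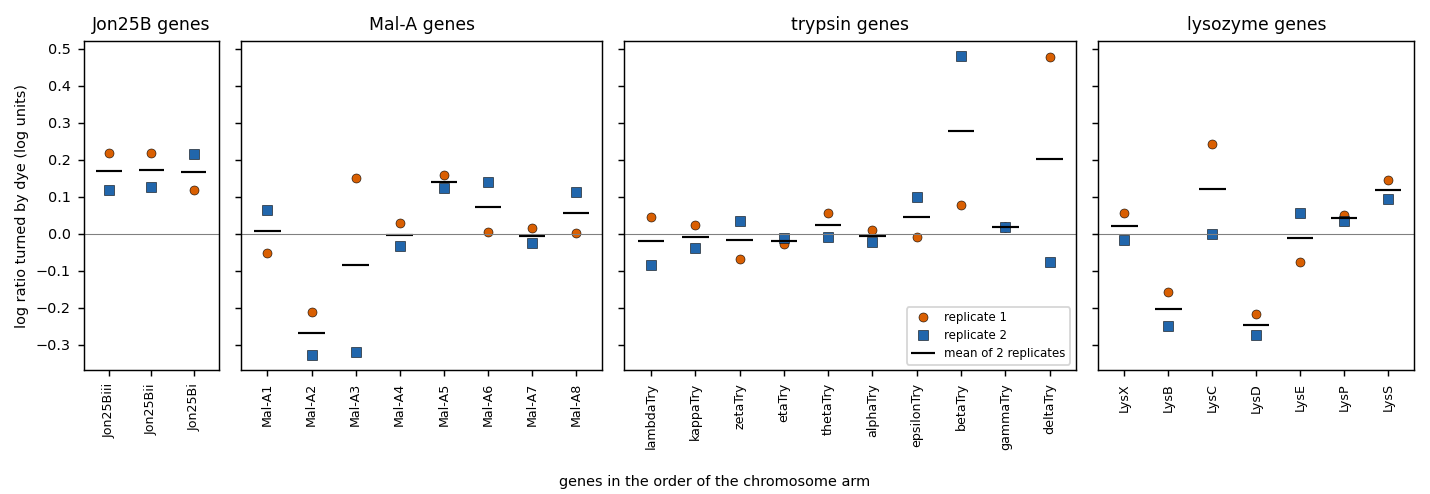
Log ratio turned by dye for the genes of 4 tandem clusters in the order of the chromosome arm; circles are replicate 1, squares replicate 2 and bars the mean of both. The 3 Jon25B genes lie between 0.12 and 0.22, Mal-A2, LysB and LysD lie below 0 in both replicates, and most trypsins lie near 0.

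Neighbouring genes were not generally alike. Over the 30 pairs of adjacent members within 100 kb of each other, the largest difference on any of the 4 arrays had a median of 0.41 log units, against 0.46 over all 861 pairs of members. The closest pair of all was LysX and thetaTry, of different families and chromosome arms, which differed by at most 0.02 on the 4 arrays. LysP and LysX, and the trypsin neighbours kappaTry and zetaTry, differed by at most 0.09 and 0.11.

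Other gut genes were set beside the members, tested as genes with their probes averaged. As deposited, limma's fit over genes used 1 common variance for all genes. A gene's own SD therefore did not enter its p-value in that reading. A list of digestive enzymes outside the rule, which also held genes of other kinds, such as Npc1b, had 15 measured genes. Of these, 0 passed an adjusted p of 0.05 in limma in either reading, against 0.00895% of all genes after turning and 1.4% as deposited. An unadjusted p under 0.05 was found for 6 after turning, against 15.7% of all genes, and for 2 as deposited, against 12.0%. After turning, 12 of 15 were positive, against 46.0% of all genes, and their median was 0.05 against -0.01 over all genes. As deposited, 10 of 15 were positive, with a median of 0.10, while 47.5% of all genes were below 0. The median of the members in that reading lay on the other side, at -0.06. The protease gene yip7 stood at -0.44 and -0.30 on the B52-Cy5 arrays and at 0.17 and 0.35 on the B52-Cy3 arrays. Its turned mean was 0.31 ± 0.01 (SD, n = 2, limma's adjusted p over genes 0.0881). The lipase gene mag had a turned mean of 0.23 ± 0.07 (SD, n = 2; adjusted p = 0.129). As deposited the alpha-glucosidase genes Mal-B1 and tobi had the largest means, 0.31 ± 0.36 and 0.30 ± 0.32 (SD, n = 2; adjusted p of 0.072 and 0.0911).

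Genes of the peritrophic matrix, the lining that separates food from the midgut cells, and of gut mucins had a turned median of 0.16, with 5 of 6 measured genes above 0 (46.0% of all genes). In limma 0 passed, while 5 of 6 had an unadjusted p under 0.05, against 15.7% of all genes. Peritrophin-15a stood at -0.32 and -0.17 on the B52-Cy5 arrays and at 0.14 and 0.24 on the B52-Cy3 arrays, which gave 0.22 ± 0.01 (SD, n = 2; limma's adjusted p over genes 0.123). Muc68D had a turned mean of 0.23 ± 0.15 (SD, n = 2; adjusted p = 0.169). As deposited, all 6 means were below 0, against 47.5% of all genes, with a median of -0.04. At an unadjusted p under 0.05 there were 0, against 12.0% of all genes.

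Of 10 measured regulators of the midgut, 2 were above 0 after turning, against 46.0% of all genes, with a median of -0.06. As deposited 5 were above 0, with a median of -0.0001, and 47.5% of all genes were below 0. GATAe, a GATA factor of the midgut, stood at -0.46 and -0.20 on the B52-Cy5 arrays and at 0.02 and -0.19 on the B52-Cy3 arrays. Its turned mean of 0.12 ± 0.17 (SD, n = 2) was the highest of the list. On the other side lay srp, another GATA factor, at -0.11 ± 0.06 and Ptx1, a homeobox factor, at -0.10 ± 0.12. The GATAe mean as deposited was -0.21 ± 0.01 (SD, n = 2, limma's adjusted p over genes 0.355). As deposited, Hnf4, a nuclear receptor, had the largest mean, -0.29 ± 0.17 (SD, n = 2; limma's adjusted p over genes 0.126). The 7 peptides of endocrine cells had medians of 0.01 after turning and 0.06 as deposited, and Dh31 a mean of 0.30 ± 0.28 as deposited (SD, n = 2; limma's adjusted p over genes 0.0927). At an unadjusted p under 0.05 there were 0 regulators and 1 peptide after turning, against 15.7% of all genes. As deposited there were 3 and 2, against 12.0%.

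Among genes of neighbouring tissues, those of the salivary gland went furthest, and in both directions. Their turned median over 9 genes was -0.01, and 5 of 9 had an unadjusted p under 0.05, against 15.7% of all genes. The neighbouring genes ng1 and ng2 had turned means of -0.54 ± 0.37 and -0.53 ± 0.33 (SD, n = 2; limma's adjusted p over genes 0.123 and 0.115), farther from 0 than any member. Sgs8, a glue protein gene, lay at 0.23 ± 0.07 (SD, n = 2). As deposited, the salivary gland median was -0.10, with 1 of 9 above 0, while 47.5% of all genes were below 0. At an unadjusted p under 0.05 there were 0, against 12.0% of all genes. The 3 fat body and 9 eye disc genes had turned medians of 0.01 and -0.01. At an unadjusted p under 0.05 there were 1 and 2, against 15.7% of all genes. As deposited the medians were 0.03 each, with 0 and 1 at that threshold, against 12.0%. In limma 0 genes of these 5 lists passed an adjusted p of 0.05 in either reading. The part of these tissues in the members' values was not tested. In a ratio between precipitates, the number of cells of a type, the RNA per cell and the share brought down cannot be told apart.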

How the data were processed

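The authors deposited 1 table with a log ratio of the 2 channels for each of 15744 probes and 4 arrays, which is another kind of unit than counts or intensities. Neither the log base nor the ratio's direction is stated in the labels, nor is any background correction or normalization. The 16 cells at -10000 were taken as missing, and between 14788 and 15394 probes per array had a value. Each array was centred on its median, and the 2 dye orientations of a replicate, which the labels call a dye swap, were averaged. For the turned reading the B52-Cy5 arrays were first multiplied by -1.

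Tests used limma 3.58.1 in R 4.3.3 on the 13963 probes with 4 values (lmFit, eBayes, mean of 2 replicates against 0). Benjamini-Hochberg adjustment was over all of them, at 0.05. A run on simulated data with independent arrays checked only that a known mean was recovered. Symbols came from the platform annotation, brought up to date by gene identifier with the gene table of assembly Release 6; of the members 45 matched by identifier and LysC by symbol. No build is named for the arrays, so coordinates are not given. The members and lists were chosen with earlier results of these data known. Named genes were, per family, the probe with the largest mean in each reading, the 6 largest members in each reading, and up to 3 genes per other list.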

Additional observations from a re-analysis of the deposited data

How the results depend on the processing

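The alternatives were values that were not centred, a common median absolute deviation for the arrays, and probes with 1 array or more in each replicate. Each replicate or array was also left out. Other fits took the 4 arrays as separate samples, with a dye term, or with a fixed or random replicate block. A robust moderation and probes averaged to genes were used as well. Print position was removed as a running median over probes in their deposited order, which stood in for their place on the array. The members were also taken without LysRS or, added after seeing the data, without LysB and LysD. The number of members past the adjusted p of 0.05 after turning, 0 in the main setting, stayed 0 except with a random replicate block in limma, where it was 1 (Mal-A2, with 3.2% of all probes passing). The negative correlation within replicates in that fit, -0.66, shrinks the standard error. With a fixed replicate block the number was 0 in both readings. As deposited it was 0 except with genes in place of probes, where it was 2 (deltaTry and Jon25Biii, with 1.4% of all genes), and with replicates or arrays left out, where it ran from 0 to 7. The fit over genes used 1 common variance in place of each gene's own, and the fit without array B52-Cy5 2 nearly did so. The 7 came without replicate 2, a fit that took the 2 dye orientations of 1 replicate as separate samples. There was 1 each without array B52-Cy5 2 (Jon74E) and without array B52-Cy3 1 (deltaTry), where 1.2% and 0.895% of all probes passed. After turning it was 0 in each of these. With replicates or arrays left out, the median of the members ran from -0.0024 to 0.0606 after turning, the lowest without array B52-Cy5 1 and the highest without array B52-Cy3 1. As deposited it ran from -0.129 without replicate 2 to 0.0148 without replicate 1. The members of 1 direction on all 4 turned arrays, 6, were 4 without centring. Those of 1 direction on all arrays kept ran from 7 to 25 after turning and from 14 to 33 as deposited, fewer arrays making the rule easier to meet. Of the 13 members named by rule, 5 kept their sign after turning and 8 as deposited under each alternative. The cause of these shifts was not tested.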
